A study of Homo sapiens with 24 samples.

Results

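The miR-200 family is a set of epithelial miRNAs that lie in 2 clusters of the human genome. The hairpins of miR-200b, miR-200a and miR-429 share a primary transcript on chromosome 1, and those of miR-200c and miR-141 share another on chromosome 12. These miRNAs repress ZEB1 and ZEB2, the transcription factors that silence E-cadherin during the epithelial-mesenchymal transition (EMT), and ZEB1 and ZEB2 in turn repress both clusters through E-box motifs in their promoters. In epithelial ovarian cancer, the family is known as a marker of the epithelial state. The 9 members were taken by name from a table of 2656 mature miRNAs, 4 of them from the chromosome 12 cluster and 5 from the chromosome 1 cluster.

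Their levels were read by miR-seq in OV90 cells, a line established from an ovarian carcinoma, with 24 libraries from 6 groups of 4 replicates. The cells carried a stably expressed, doxycycline-inducible shRNA, either a negative control (shNeg, which the labels call wild type), an shRNA against RELA (shRELA) or one against RELB (shRELB). RELA and RELB are the NF-κB transcription factors of the canonical and the non-canonical pathway. Each of the 3 lines was grown as adherent cells in serum or as spheroids in serum-free medium with growth factors on ultra-low attachment plastic, which favors the growth of TICs (tumor-initiating cells), and the labels give 72 h of 1 µg/ml doxycycline for every sample, the shNeg samples included. Culture surface and medium changed together, so their parts cannot be told apart. The sources used here do not say whether a line was a clone or whether the replicates were separate cultures, so the tests below measure the spread between libraries, which may be technical. MiR-seq does not read the RELA and RELB mRNAs, and the degree of silencing was not checked here. In bulk samples, fewer cells that make a miRNA and less of it per cell cannot be told apart.

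Adherent libraries held 3797175 to 8283549 counts and spheroid libraries 959141 to 3580931, with the shNeg spheroids the shallowest at 959141 to 1580252. Levels are given as CPM, counts set to a common library size by the TMM method. A count of 0 allows up to 3 counts, worth 0.495 to 0.800 CPM in adherent and 0.860 to 2.29 CPM in spheroid libraries, and these limits and all counting intervals cover counting error only. One library, spheroid shNeg replicate 1, stood apart, where 432 miRNAs had a count while its 3 sister libraries had counts for 813 to 885. Test results that rest on it are given with and without it, while correlations are given with it only. The epithelial label was checked with 2 further miRNAs: hsa-miR-205-5p had group means of 497 to 1973 CPM and hsa-miR-203a-3p of 0.0476 to 4.78 CPM. Their sum was highest with shNeg, at 1532 to 1671 CPM in adherent cells and 1435 to 2622 CPM in spheroids. It was 520.5 to 635 CPM with shRELA and 567 to 774 CPM with shRELB in adherent cells. In spheroids it was 867 to 1148 CPM with shRELA and 453 to 569 CPM with shRELB. The sum, nearly all of it hsa-miR-205-5p, was thus lower with both knockdowns in both cultures. The mean of hsa-miR-200c-3p was lower than with shNeg in adherent shRELA cells and higher in the other knockdown groups. Of 13 miRNAs known as markers of other tissues, hsa-miR-122-5p of liver had group means of 14958 to 24793 CPM. Those of hsa-miR-126-3p of endothelium were 793 to 6876 CPM. Of the muscle markers, hsa-miR-1-3p was at 0 in 19 of 24 libraries and hsa-miR-133a-3p in 6. Of the blood markers, hsa-miR-451a of red blood cells was at 0 in 8 libraries and each of the others in 0 to 3. Among these, hsa-miR-486-5p had group means of 22.8 to 508 CPM.

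The mature sequences show how close the members are to each other. They are written 5′ to 3′ as RefSeq (GRCh38.p14) gives them, for the 8 members that its table names, with bases 2 to 8, the seed that pairs with target mRNAs, in capitals.
hsa-miR-200c-3p: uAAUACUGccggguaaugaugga
hsa-miR-200b-3p: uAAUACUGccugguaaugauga
hsa-miR-429: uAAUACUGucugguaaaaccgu
hsa-miR-141-3p: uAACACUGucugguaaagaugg
hsa-miR-200a-3p: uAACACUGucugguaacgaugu
hsa-miR-200c-5p: cGUCUUACccagcaguguuugg
hsa-miR-200b-5p: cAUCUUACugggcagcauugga
hsa-miR-200a-5p: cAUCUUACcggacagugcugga

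The 3p strands and hsa-miR-429 fall into 2 seed groups that cut across the clusters: AAUACUG in hsa-miR-200c-3p, hsa-miR-200b-3p and hsa-miR-429, and AACACUG in hsa-miR-141-3p and hsa-miR-200a-3p. No other mature miRNA of the RefSeq table held either seed. Counted from 1 at the 5′ end, hsa-miR-200c-3p differs from hsa-miR-200b-3p by G11U and G22A over the 22 bases they share, and hsa-miR-141-3p from hsa-miR-200a-3p by A17C and G22U. Between the seed groups, hsa-miR-200c-3p differs from hsa-miR-141-3p by U4C, C9U, G11U and U17A, of which U4C lies in the seed. Among the 5p strands, hsa-miR-200b-5p and hsa-miR-200a-5p share the seed AUCUUAC, and hsa-miR-200c-5p holds GUCUUAC, as does hsa-miR-550a-3p.

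In RefSeq (GRCh38.p14), the chromosome 12 hairpins MIR200C (chr12:6963699-6963766) and MIR141 (chr12:6964097-6964191) lie on the plus strand within 493 bases. Both are inside the lncRNA gene MIR200CHG, and GENCODE v44 places no exon of that gene over either, so they are intronic there. The chromosome 1 hairpins MIR200B (chr1:1167104-1167198), MIR200A (chr1:1167863-1167952) and MIR429 (chr1:1169005-1169087) lie on the plus strand within 1984 bases, inside the bounds of the lncRNA gene MIR200BHG as RefSeq draws it. Since members of both clusters were called higher together with shRELB in comparisons below, a window around the RefSeq start of each host gene is shown. Capitals mark the E-box CACCTG, searched on both strands (as CACCTG and CAGGTG, which do not overlap each other here).
MIR200CHG, chr12:6962995-6963294, plus strand: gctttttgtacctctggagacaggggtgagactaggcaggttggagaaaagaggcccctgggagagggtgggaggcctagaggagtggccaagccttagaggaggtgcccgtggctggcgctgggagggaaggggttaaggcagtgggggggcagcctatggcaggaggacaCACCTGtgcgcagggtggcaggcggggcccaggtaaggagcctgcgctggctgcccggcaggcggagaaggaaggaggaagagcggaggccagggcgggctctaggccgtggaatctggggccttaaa
MIR200BHG, chr1:1162627-1162926, plus strand: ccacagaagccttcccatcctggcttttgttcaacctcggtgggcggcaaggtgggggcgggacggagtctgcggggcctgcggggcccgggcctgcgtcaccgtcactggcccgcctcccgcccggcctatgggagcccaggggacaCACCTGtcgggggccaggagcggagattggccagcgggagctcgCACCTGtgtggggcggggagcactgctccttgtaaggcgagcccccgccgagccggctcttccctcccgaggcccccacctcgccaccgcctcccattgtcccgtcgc

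The MIR200CHG window holds 1 E-box, starting at position -78 from the start site, and the MIR200BHG window holds 2, at -102 and -58. Of 35116 promoter windows of this length, 20.6% hold at least 1 such motif and 3.49% hold 2 or more. The NF-κB consensus κB motif was found in neither window and in 5.91% of all windows. A match is a description of the letters only, and no binding was measured.

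Nearly all counts of the family came from 1 strand. hsa-miR-200c-3p made up 93.6% to 99.0% of the summed counts of the 9 members in each library, and the family made up 0.182% to 1.62% of all counts. By rank among all miRNAs of a library, hsa-miR-200c-3p stood between 35th and 38th in adherent shNeg cells, between 22nd and 28th in adherent shRELB cells, and between 16th and 25th in shRELB spheroids. The summed counts of the chromosome 12 cluster were 86.9 to 393 times those of the chromosome 1 cluster. Levels of different miRNAs are compared here per count, at mature lengths of 22 or 23 bases, and how efficiently each was captured was not measured.

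The level of hsa-miR-200c-3p, the dominant AAUACUG strand, moved over a wide range between groups. In adherent shNeg libraries 1 to 4 it was 3129, 3136, 3151 and 3263 CPM. In adherent shRELA libraries it was 2537, 1870, 2151 and 2638 CPM, and in adherent shRELB libraries 6785, 7940, 8721 and 8234 CPM. All 4 adherent shRELB libraries lay above all 8 other adherent libraries, and all 4 shRELA libraries lay below the 4 shNeg libraries. In shNeg spheroids it was 1641, 2387, 2168 and 1940 CPM. In shRELA spheroids it was 3376, 6292, 5750 and 6784 CPM, and in shRELB spheroids 15661, 12225, 11824 and 7210 CPM. In TMM-scaled CPM, the 3 spheroid groups did not overlap. As a share of library counts, shNeg spheroids reached 0.326% and shRELA spheroids began at 0.309%, so that separation depends on the scaling. The order of group means from low to high was shNeg spheroids (2034 ± 319 CPM, SD, n = 4), adherent shRELA (2299 ± 355), adherent shNeg (3170 ± 62.9), shRELA spheroids (5550 ± 1510), adherent shRELB (7920 ± 822) and shRELB spheroids (11730 ± 3471). The lowest pair and the highest pair in that order overlapped in their ranges, and the other neighbours did not. As a share of library counts, adherent shNeg cells (up to 0.310%) and shRELA spheroids (from 0.309%) also overlapped.

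hsa-miR-141-3p, from the same primary transcript but with the AACACUG seed, had lower levels. In adherent shNeg libraries it was 129, 152, 153 and 123 CPM, in adherent shRELA libraries 118, 84.0, 62.8 and 156 CPM, and in adherent shRELB libraries 252, 286, 245 and 232 CPM. The adherent shRELB libraries again stood above all others of adherent culture, while the shRELA and shNeg ranges overlapped. In spheroids it was 26.4, 38.2, 60.5 and 50.5 CPM with shNeg, 80.1, 76.7, 51.5 and 42.6 CPM with shRELA, and 170, 143, 131 and 97.2 CPM with shRELB. The shRELB spheroids lay above the other 8 spheroid libraries, and the shNeg and shRELA spheroids overlapped. Adherent shRELB, at 254 ± 22.9 CPM (SD, n = 4), was the only group whose range was clear of its neighbour in the order of means, and shNeg spheroids were lowest at 43.9 ± 14.8 CPM.

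hsa-miR-200b-3p, the chromosome 1 member with the seed of hsa-miR-200c-3p, had 23.0, 22.4, 21.2 and 29.2 CPM in adherent shNeg libraries. It had 10.6, 10.3, 12.8 and 11.6 CPM in adherent shRELA libraries and 33.6, 35.1, 38.2 and 34.8 CPM in adherent shRELB libraries. The 3 adherent groups did not overlap. In shNeg spheroids it had 0.733, 15.3, 13.3 and 11.9 CPM, where the first value is a single count. It had 21.1, 20.0, 11.6 and 23.2 CPM in shRELA spheroids and 40.6, 34.6, 28.4 and 28.1 CPM in shRELB spheroids. The shRELB spheroids lay above the other 2 spheroid groups, which overlapped. Every pair of neighbours overlapped in the order of the 6 means, which ran from 10.3 ± 6.54 CPM in shNeg spheroids to 35.4 ± 1.95 CPM in adherent shRELB cells (SD, n = 4).

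hsa-miR-200a-3p, its chromosome 1 neighbour with the AACACUG seed, was lower still. It had 47, 32, 41 and 46 counts (7.79, 8.53, 7.35 and 7.91 CPM) in adherent shNeg libraries and 15, 7, 9 and 40 counts (2.48, 1.34, 1.71 and 6.62 CPM) in adherent shRELA libraries. It had 65, 52, 60 and 44 counts (10.9, 12.2, 10.3 and 8.86 CPM) in adherent shRELB libraries. The 3 adherent groups did not overlap, with shRELA lowest and shRELB highest. In spheroids it had 14, 1, 3 and 6 counts with shNeg, 9, 8, 6 and 7 with shRELA, and 14, 23, 15 and 23 with shRELB. The highest shNeg spheroid value, 10.3 CPM, came from replicate 1, the library with a single hsa-miR-200b-3p count.

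The 5p strands and hsa-miR-429 had the fewest counts in most groups, with hsa-miR-141-5p the highest of these 5. hsa-miR-141-5p had 19, 10, 16 and 21 counts in adherent shNeg, 23, 9, 15 and 28 in adherent shRELA, and 44, 32, 56 and 43 in adherent shRELB libraries. In spheroids it had 0, 4, 3 and 3 counts with shNeg, 8, 8, 0 and 9 with shRELA, and 6, 11, 17 and 26 with shRELB. Its adherent shRELB libraries, at 7.36 to 9.59 CPM, lay above the other adherent libraries. hsa-miR-200c-5p had 4 to 10 counts in adherent shNeg, 0 to 6 in adherent shRELA, 8 to 14 in adherent shRELB, 0 to 2 in shNeg spheroids, 0 to 3 in shRELA spheroids and 2 to 7 in shRELB spheroids. hsa-miR-429 had 3 to 7, 0 to 5 and 4 to 9 counts in the same adherent groups. It had 1 pooled count in the 4 shNeg spheroid libraries, 1 in the shRELA spheroids and 13 in the shRELB spheroids. hsa-miR-200b-5p had 14, 5 and 18 pooled counts in adherent shNeg, shRELA and shRELB cells, and 0, 7 and 11 in the spheroids in that order. hsa-miR-200a-5p had 6 counts in all 24 libraries, 2 in adherent shNeg and 4 in adherent shRELB cells, and was not tested. Of the counts of a hairpin over all libraries, the 5p strand took 0.0234% for MIR200C (95% Wilson interval 0.0194 to 0.0283), 3.10% for MIR141 (2.82 to 3.41), 2.57% for MIR200B (1.98 to 3.33) and 1.01% for MIR200A (0.465 to 2.19). These shares pool groups that differed for MIR200C and MIR141. For MIR200C it was 0.0387% (0.0264 to 0.0567) in adherent shNeg cells and 0.0120% (0.00712 to 0.0201) in shRELB spheroids. For MIR141 it was 2.21% (1.74 to 2.81) and 4.18% (3.26 to 5.35) in the same groups.

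**Figure D1:**
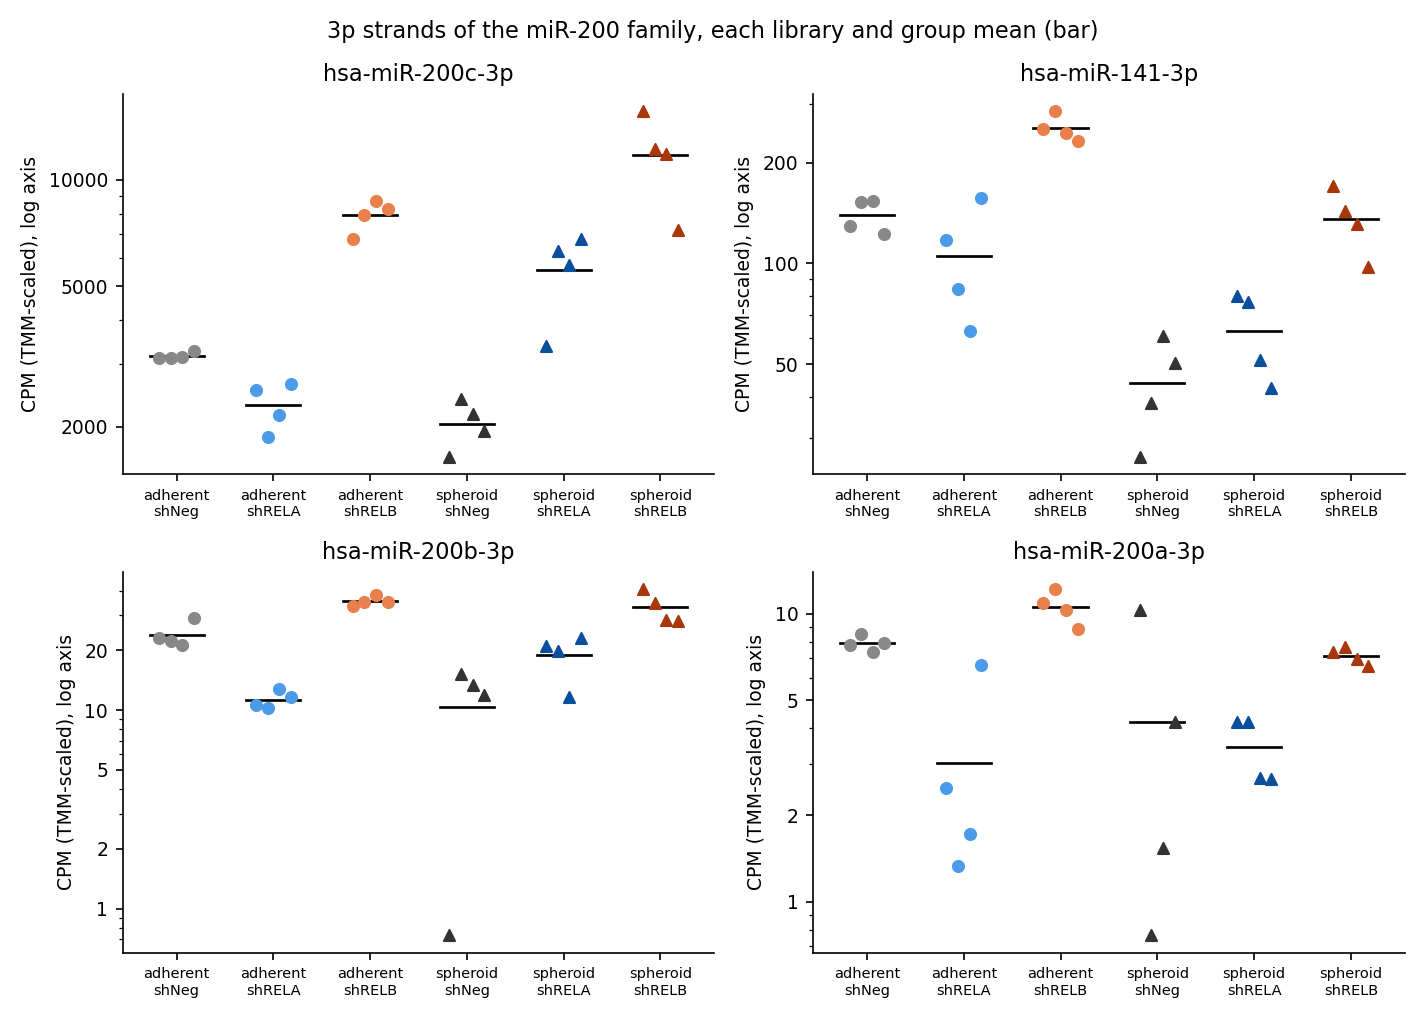
TMM-scaled CPM of 4 members on log axes, with 1 point per library, circles for adherent and triangles for spheroid cultures, and a bar at each group mean (n = 4). All 4 panels place adherent shRELB above the other adherent groups, and the share of all miRNAs placed in this way is not given. Against adherent shNeg, only hsa-miR-200c-3p was called there, beside 7.07% of all miRNAs tested. The lone low triangle for hsa-miR-200b-3p is the 0.733 CPM of spheroid shNeg replicate 1.

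Differences were tested with edgeR's quasi-likelihood test on 905 miRNAs over all 24 libraries, 8 of the members among them, and a call needed a Benjamini-Hochberg FDR below 0.01 and a fold change above 2. Log2 fold changes are given with their SE. With RELB silenced in adherent cells, hsa-miR-200c-3p rose by 1.32 ± 0.20 (2.50-fold, FDR = 7.13e-06) and was the only member called, against 7.07% of all miRNAs tested. The other members with an FDR below 0.05 were hsa-miR-141-5p at 1.41 ± 0.48 (FDR = 0.0452) and hsa-miR-141-3p at 0.86 ± 0.26 (FDR = 0.0192). The share of all miRNAs at that threshold is not given. hsa-miR-200b-3p was at 0.56 ± 0.32 (FDR = 0.283) and hsa-miR-200a-3p at 0.42 ± 0.42 (FDR = 0.602). Without spheroid shNeg replicate 1, 2 members were called, hsa-miR-141-5p beside hsa-miR-200c-3p. With RELA silenced in adherent cells, no member was called, against 3.76% of all miRNAs, while 3 of the 8 had an unadjusted p under 0.05, as did 18.1% of all miRNAs. These 3 were hsa-miR-200a-3p at -1.35 ± 0.44 (FDR = 0.0559), hsa-miR-200b-3p at -1.08 ± 0.33 (FDR = 0.0302) and hsa-miR-200c-3p at -0.46 ± 0.20 (FDR = 0.182). Of the others, hsa-miR-429 was at -1.53 ± 0.85 (FDR = 0.35), hsa-miR-200b-5p at -1.40 ± 1.05 (FDR = 0.523) and hsa-miR-200c-5p at -0.87 ± 0.77 (FDR = 0.621). hsa-miR-141-3p was at -0.40 ± 0.25 (FDR = 0.442) and hsa-miR-141-5p at 0.08 ± 0.49 (FDR = 0.971). DESeq2 called the chromosome 1 pair, hsa-miR-200a-3p and hsa-miR-200b-3p, both lower, and so did the quasi-likelihood test without spheroid shNeg replicate 1 or on the 8 libraries compared alone. Without adherent shRELA replicate 4 it called 1, hsa-miR-200a-3p. The 3.76% and 7.07% belong to the quasi-likelihood fit of all 24 libraries, and the shares of all miRNAs called under these other settings are not given.

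In direct comparison of the knockdowns in adherent cells, the 3p strands of 4 hairpins were higher with shRELB than with shRELA, and these were the 4 members called, against 10.8% of all miRNAs in either direction and 6.63% in this one. The log2 differences were 1.78 ± 0.20 for hsa-miR-200c-3p (3.44-fold, FDR = 3.76e-08), 1.27 ± 0.26 for hsa-miR-141-3p (2.41-fold, FDR = 3.51e-04), 1.65 ± 0.33 for hsa-miR-200b-3p (3.13-fold, FDR = 2.81e-04) and 1.77 ± 0.44 for hsa-miR-200a-3p (3.41-fold, FDR = 0.0034). For the other 4 members tested, the same difference was 1.33 ± 0.47 for hsa-miR-141-5p (FDR = 0.0356), 1.71 ± 0.75 for hsa-miR-200c-5p (FDR = 0.0983), 1.68 ± 0.84 for hsa-miR-429 (FDR = 0.164) and 1.85 ± 1.04 for hsa-miR-200b-5p (FDR = 0.229), none of them called. The hsa-miR-200a-3p call was lost on leaving out adherent shRELA replicate 2 or 3 or adherent shRELB replicate 2, and the hsa-miR-200b-3p call was lost with limma.

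In spheroids, members of both clusters were higher with RELB silenced. hsa-miR-200c-3p rose by 2.53 ± 0.21 (5.77-fold, FDR = 1.87e-11), hsa-miR-141-3p by 1.61 ± 0.27 (3.06-fold, FDR = 2.24e-05) and hsa-miR-200b-3p by 1.65 ± 0.36 (3.15-fold, FDR = 7.16e-04). These were the 3 members called, all higher, against 13.4% of all miRNAs called in either direction and 7.29% called higher. Without spheroid shNeg replicate 1 the same 3 were called, at 2.44, 1.43 and 1.28. With only the 8 libraries compared in the fit, 1 remained, hsa-miR-200c-3p, while hsa-miR-141-3p had an FDR of 0.0111 and hsa-miR-200b-3p of 0.145. hsa-miR-200a-3p was at 0.80 ± 0.52 (FDR = 0.262), or 1.72 (FDR = 0.0148) without that library. hsa-miR-141-5p was at 1.73 ± 0.64 (FDR = 0.0404). The pooled hsa-miR-429 counts of 13 against 1 gave a ratio of 7.46 per library size, with an exact counting interval of 1.12 to 317, and those of hsa-miR-200c-5p, 14 against 2, gave 4.02 (0.922 to 36.4). By the quasi-likelihood test, neither was called (FDR = 0.104 for hsa-miR-429 and 0.180 for hsa-miR-200c-5p). Spheroid shRELB replicate 1 alone gave 7 counts of each.

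With RELA silenced in spheroids, hsa-miR-200c-3p rose by 1.45 ± 0.20 (2.73-fold, FDR = 1.46e-06), the only member called, against 15.1% of all miRNAs. Without spheroid shNeg replicate 1 it was 1.36 (FDR = 3.71e-07). hsa-miR-200b-3p was at 0.86 ± 0.37 (FDR = 0.0814), hsa-miR-141-3p at 0.50 ± 0.27 (FDR = 0.176) and hsa-miR-200a-3p at -0.26 ± 0.56 (FDR = 0.77). Without that library, hsa-miR-200a-3p turned to 0.65 and hsa-miR-200b-3p was 0.49. With library totals in place of TMM, hsa-miR-200c-3p was at 1.05 (FDR = 2.82e-04), still called but close to the fold limit. By the same scaling, hsa-miR-200b-3p was at 0.44, hsa-miR-141-3p at 0.09 and hsa-miR-200a-3p at -0.62. Both knockdowns are set against the same 4 shNeg spheroid libraries. Between the knockdowns, hsa-miR-200c-3p was higher with shRELB than with shRELA by 1.08 ± 0.20 (2.11-fold, FDR = 1.43e-04) and hsa-miR-141-3p by 1.11 ± 0.26 (2.16-fold, FDR = 0.0027), the 2 members called, against 6.63% of all miRNAs and 3.87% called higher. Both lay close to the fold limit: without spheroid shRELB replicate 1 they were at 0.91 and 0.98 and 0 members were called. hsa-miR-200c-3p was at 0.88 without spheroid shRELA replicate 1, and hsa-miR-141-3p had FDRs of 0.0129 and 0.0163 without spheroid shRELA replicates 3 and 4.

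Levels of markers of other cell types moved with the groups. The 5 blood miRNAs, hsa-miR-486-5p the highest of them, summed to 431 to 725 CPM in shNeg spheroids, 72.1 to 117 CPM in shRELA spheroids and 164 to 226 CPM in shRELB spheroids, and to 23.5 to 56.8 CPM in adherent libraries, with all 5 counted in each group except 4 in shRELB spheroids, where hsa-miR-451a was at 0. The 4 miRNAs of fibroblasts and smooth muscle, all counted in each group, summed to 110 to 161 CPM in shNeg, 69.8 to 95.05 in shRELA and 195 to 309 in shRELB spheroids, which did not overlap and stood highest with shRELB, as hsa-miR-200c-3p did. In adherent cells they summed to 316 to 365 CPM with shNeg, 67.8 to 118 with shRELA and 320 to 358 with shRELB, so that shRELA was lowest and the other groups overlapped. hsa-miR-126-3p of endothelium had 6263 to 7357, 3835 to 8826 and 2093 to 2404 CPM in the adherent groups and 696 to 856, 1144 to 1667 and 538 to 1216 CPM in the spheroids, each in the order shNeg, shRELA and shRELB. The 13 miRNAs of other tissues summed to 17631 to 25561 CPM in shNeg, 15754 to 17302 in shRELA and 14686 to 22826 in shRELB spheroids, and to 25801 to 28632, 25547 to 38366 and 21021 to 24597 CPM in the adherent groups in that order. The shNeg spheroids were also the shallowest libraries. The part of these differences in the results was not tested.

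**Figure D2:**
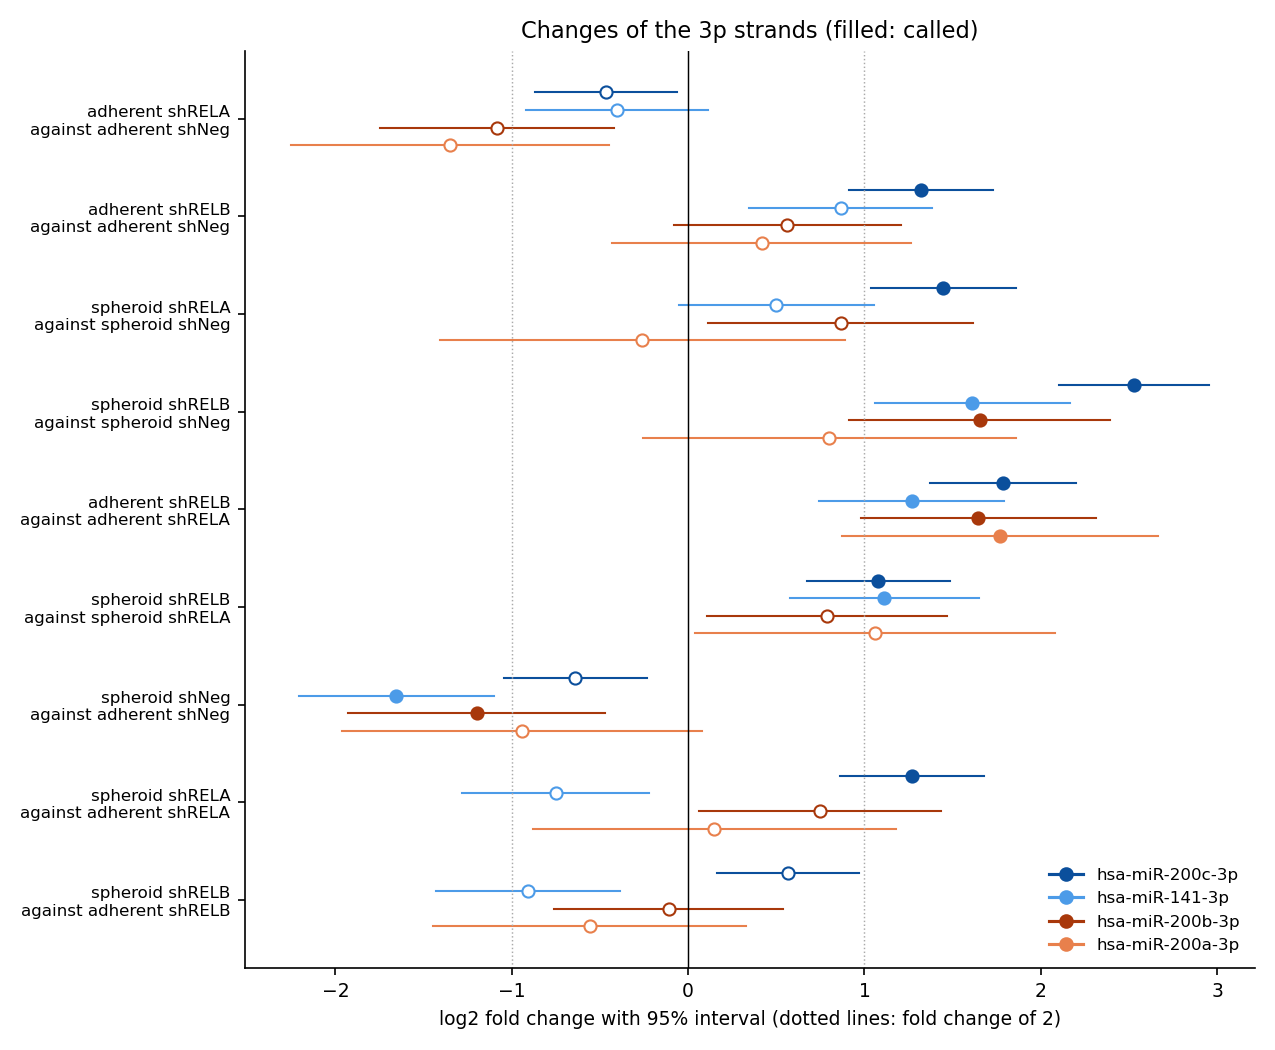
Log2 fold changes (horizontal axis) of 4 members with 95% intervals in 9 comparisons, filled where called, with dotted lines at a fold change of 2. The 4 filled points with shRELB against shRELA in adherent cells lie between 1.27 and 1.78, and hsa-miR-200c-3p reaches 2.53 with RELB silenced in spheroids.

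The 2 knockdowns were next compared between cultures, as the difference of each knockdown's change. The change of hsa-miR-200c-3p with shRELA was higher in spheroids than in adherent cells by 1.91 ± 0.28 (FDR = 2.93e-05), and that of hsa-miR-200b-3p by 1.95 ± 0.49 (FDR = 0.0062), the 2 members called, against 7.62% of all miRNAs. Both had values below 0 with shRELA in adherent cells and above 0 in spheroids, and of these 4 changes only the spheroid rise of hsa-miR-200c-3p was called by itself. The hsa-miR-200b-3p difference fell short of a call with median-ratio size factors, with library totals, with limma, with the replicate number as a block, with only the 4 groups compared, or without any 1 of adherent shNeg replicates 1 and 4, adherent shRELA replicate 2 and spheroid shRELA replicates 2 and 4. With shRELB, the change of hsa-miR-200c-3p was higher in spheroids by 1.21 ± 0.28 (FDR = 0.0024), the only member called, against 8.51% of all miRNAs. It was 0.80 (FDR = 0.0626) with library totals in place of TMM, so this call depends on the scaling. Without spheroid shNeg replicate 1, the differences were 1.83 and 1.58 for the shRELA pair and 1.12 for shRELB, and all 3 stayed called. hsa-miR-141-3p was at 0.90 ± 0.37 (FDR = 0.104) for shRELA and 0.75 ± 0.37 (FDR = 0.178) for shRELB.

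Between cultures, the strands of the chromosome 12 cluster did not move alike. In shNeg cells, hsa-miR-141-3p fell by 1.65 ± 0.27 on the log2 scale in spheroids (3.15-fold, FDR = 3.66e-06) and hsa-miR-200b-3p fell by 1.20 ± 0.36 (2.30-fold, FDR = 0.0050), the 2 members called, against 42.2% of all miRNAs. hsa-miR-200c-3p was at -0.64 ± 0.20 (FDR = 0.0067), short of the fold limit. Without spheroid shNeg replicate 1, hsa-miR-141-3p was at -1.47 and stayed called, hsa-miR-200b-3p was at -0.83 (FDR = 0.0080) and was not, and hsa-miR-200a-3p was at -1.86 (FDR = 0.0025) and was called. The hsa-miR-200b-3p call was also lost without adherent shNeg replicate 4. The median of all miRNAs tested was -0.26 in this comparison and 0.17 with library totals, by which hsa-miR-141-3p was at -1.21 and still called, hsa-miR-200b-3p at -0.74 and hsa-miR-200c-3p at -0.19. In shRELA cells, hsa-miR-200c-3p rose by 1.27 ± 0.20 in spheroids (2.41-fold, FDR = 4.07e-06), the only member called, against 32.6% of all miRNAs. hsa-miR-141-3p had a value of the opposite sign there, -0.75 ± 0.26 (FDR = 0.0167). In shRELB cells, no member was called, against 25.0% of all miRNAs, while 2 members of 8 had an unadjusted p under 0.05, a smaller share than the 50.1% of all miRNAs. They were of opposite sign, hsa-miR-200c-3p at 0.57 ± 0.20 (FDR = 0.0211) and hsa-miR-141-3p at -0.91 ± 0.26 (FDR = 0.0049, short of the fold limit). DESeq2 called none there either, while leaving out any 1 of adherent shNeg replicate 2, adherent shRELA replicate 1 and spheroid shRELB replicates 1 and 2 gave 1 call, hsa-miR-141-3p.

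The same split is seen within libraries, where scaling plays no part. This ratio was chosen after the values were seen and is given with no test. hsa-miR-200c-3p counts were 24.3, 20.6, 20.5 and 26.6 times those of hsa-miR-141-3p in adherent shNeg libraries, 21.6, 22.3, 34.2 and 16.9 times in adherent shRELA and 26.9, 27.8, 35.6 and 35.5 times in adherent shRELB libraries. They were 62.2, 62.5, 35.8 and 38.4 times in shNeg spheroids, 42.1, 82.1, 112 and 159 times in shRELA spheroids and 92.0, 85.3, 90.2 and 74.2 times in shRELB spheroids. Every spheroid library lay above every adherent library, but only narrowly at the closest point. There, spheroid shNeg replicate 3 was at 35.8 times, on 118 hsa-miR-141-3p counts, and adherent shRELB replicate 3 at 35.6 times. By seed, AACACUG strands (hsa-miR-141-3p and hsa-miR-200a-3p) were 4.41% ± 0.508, 4.38% ± 1.19 and 3.24% ± 0.478 of the counts of both seeds in adherent shNeg, shRELA and shRELB cells. They were 2.32% ± 0.550, 1.32% ± 0.776 and 1.23% ± 0.132 in the spheroids in that order (SD, n = 4).

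The clusters were compared directly by pairing strands that share a seed. Within-library log2 ratios (0.5 counts added) were tested by 2-sided exact permutation of 4 against 4 libraries, for which the smallest possible p is 0.0286, and adjusted over 14 tests. The ratio of hsa-miR-200c-3p to hsa-miR-200b-3p was 7.05 ± 0.18 in adherent shNeg libraries (SD, n = 4), about 133-fold. It was higher by 0.60 with shRELA and by 0.74 with shRELB in adherent cells, and by 0.64 in shRELB spheroids against adherent shRELB cells. The same culture difference in shRELA cells was 0.52 (exact permutation p = 0.2). In each of the first 3 comparisons the groups did not overlap, with an exact p = 0.0286 and an adjusted p = 0.05, which is not below 0.05. At the smallest possible p, the adjusted value is set by how many of the 14 tests reached it. It does not measure the size of a difference. The ratio of hsa-miR-141-3p to hsa-miR-200a-3p was 4.12 ± 0.18 in adherent shNeg libraries, about 17.4-fold. It was higher by 1.15 with shRELA and by 0.46 with shRELB in adherent cells, while in spheroids against adherent cells it was at -1.18 with shRELA and -0.40 with shRELB, all 4 again at an exact p = 0.0286 and an adjusted p = 0.05. In both pairs the chromosome 12 strand stood higher against its chromosome 1 partner in both adherent knockdowns than in adherent shNeg cells.

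In spheroids the pairs of strands did not separate the knockdowns from shNeg. The log2 ratio of hsa-miR-200c-3p to hsa-miR-200b-3p in shNeg spheroids was 10.5, 7.25, 7.32 and 7.30, so the first library stood far above the others. Against this group, shRELA spheroids were higher by 0.07 (exact permutation p = 0.943) and shRELB spheroids by 0.33 (exact permutation p = 0.771). Without that library, as values with no test, the differences were 0.88 and 1.14. shNeg spheroids lay above adherent shNeg cells by 1.05 (exact permutation p = 0.0286, adjusted p = 0.05), or by 0.24 without that library. The log2 ratio of hsa-miR-141-3p to hsa-miR-200a-3p in shNeg spheroids was 1.33, 5.07, 5.08 and 3.48, on 1 to 14 hsa-miR-200a-3p counts per library. No difference from this group was detected, and the part of depth in that was not tested. The shRELA spheroids were at 0.34 (exact permutation p = 0.886) and the shRELB spheroids at 0.44 (exact p = 0.771) relative to shNeg spheroids, and shNeg spheroids were at -0.38 (exact p = 0.886) relative to adherent shNeg cells. Without spheroid shNeg replicate 1, as values with no test, all 3 turned sign, to -0.46, -0.36 and 0.43. The adjusted p was 0.943 for these 3 comparisons and for both knockdowns of the first pair in spheroids.

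**Figure D3:**
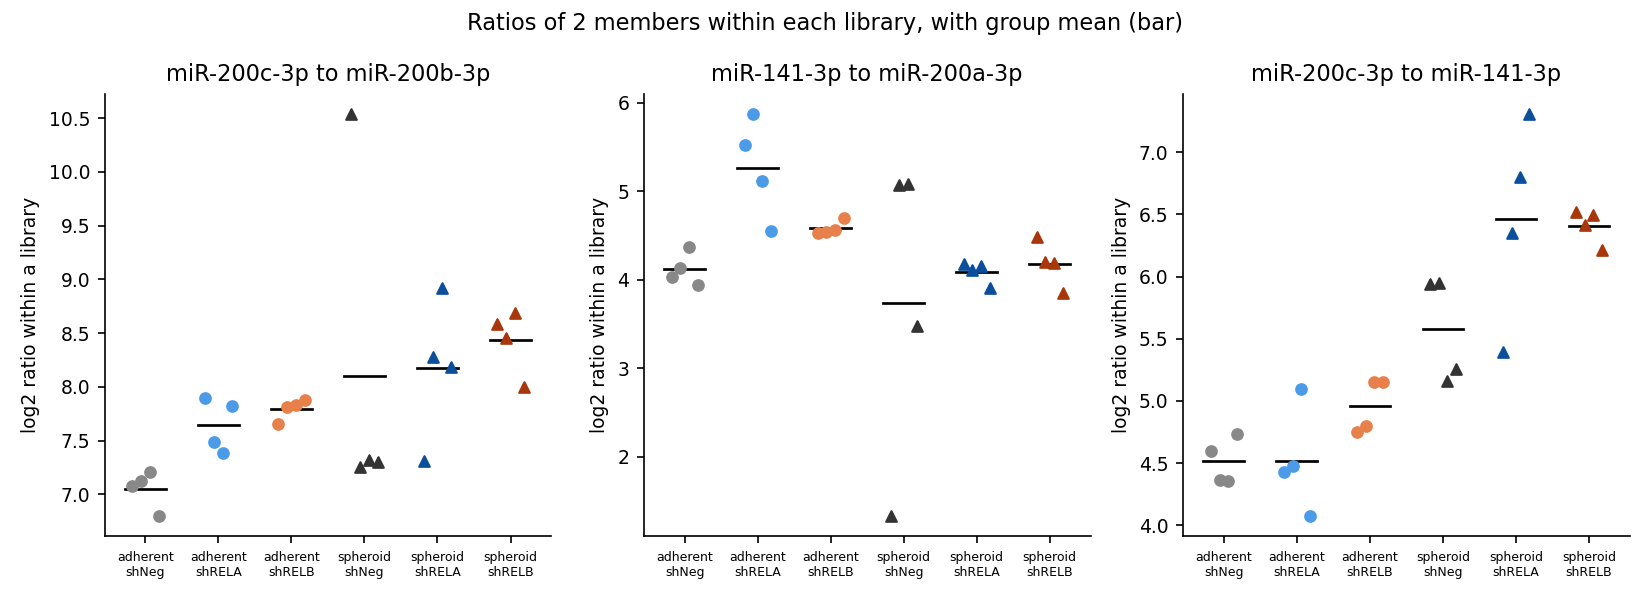
Log2 ratios of 2 members within each library, with 1 point per library and a bar at each group mean (n = 4); the left and middle panels pair strands with the same seed from different clusters, and the right panel pairs strands of 1 cluster. In the right panel every spheroid point lies above every adherent point, the closest only narrowly, and in the left panel spheroid shNeg replicate 1 stands apart at 10.5.

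Summed over each cluster, the chromosome 12 strands had 3314 ± 55.2 CPM in adherent shNeg, 2408 ± 391 in adherent shRELA and 8184 ± 819 in adherent shRELB cells (SD, n = 4). The chromosome 1 strands had 33.6 ± 3.75, 14.9 ± 3.17 and 48.3 ± 1.48 CPM in the same groups. In spheroids, the chromosome 12 sums were 2080 ± 327, 5617 ± 1497 and 11873 ± 3500 CPM with shNeg, shRELA and shRELB, and the chromosome 1 sums 14.7 ± 2.59, 23.4 ± 5.76 and 42.6 ± 7.26 CPM. The ratio of the sums was 99.3 ± 9.21 in adherent shNeg cells, 164 ± 21.0 with adherent shRELA and 169 ± 13.8 with adherent shRELB, and 143 ± 16.4, 257 ± 108 and 276 ± 53.6 in the spheroids in that order. All 20 libraries of the other groups had a ratio above the highest of the 4 adherent shNeg libraries, 109. The sum of the chromosome 1 cluster in spheroid shNeg replicate 1 was 15 counts, of which 14 were hsa-miR-200a-3p.

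**Figure D4:**
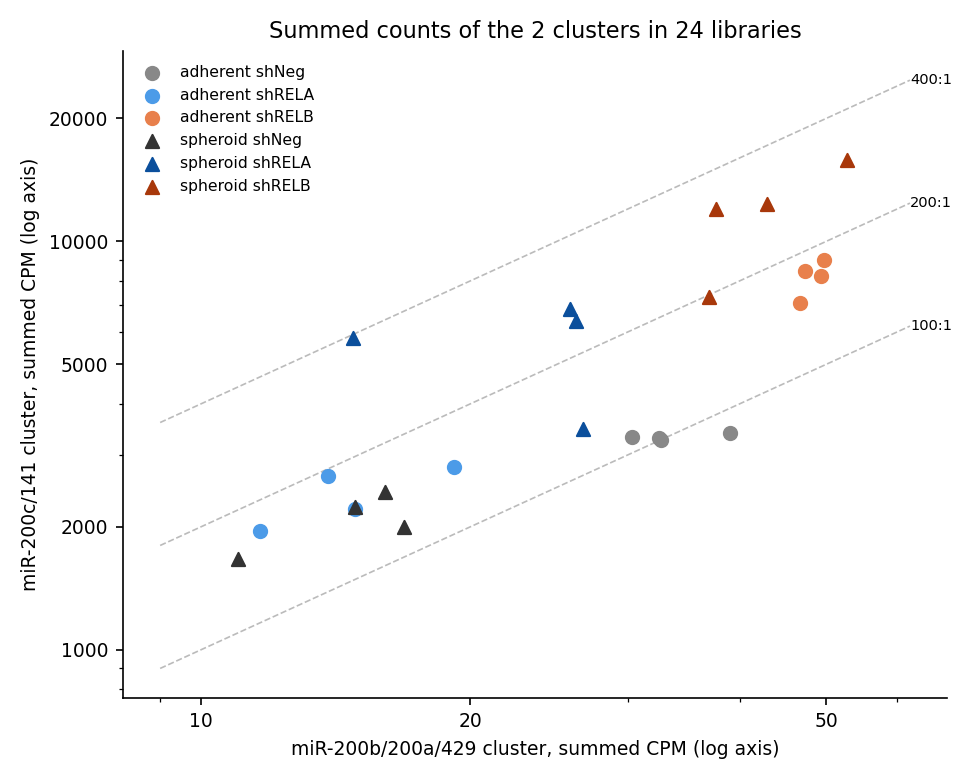
Summed CPM of the chromosome 12 cluster (vertical log axis) against that of the chromosome 1 cluster (horizontal log axis) in 24 libraries, with dashed lines of constant ratio. The adherent shNeg libraries sit at ratios of 86.9 to 109, and shRELB spheroids at 198 to 318.

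Reads of near-identical strands can be split between them by the aligner, and the sources used here do not say how such reads were assigned. No member had a value that was not whole. hsa-miR-200b-3p counts were 0.202% to 0.895% of those of hsa-miR-200c-3p, its closest relative, in 23 libraries. In spheroid shNeg replicate 1 they were 0.0447%, with 1 count beside 2238. Whether misread hsa-miR-200c-3p reads add to hsa-miR-200b-3p was not tested.

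Other miRNAs tied to EMT were taken from a pair of lists, 14 known as epithelial or as opposing the transition, 13 of them tested, and 11 known as mesenchymal or as promoting it, all tested. With RELB silenced in spheroids, 2 of the 13 were called higher and 2 lower, with a median log2 fold change of -0.18, and 3 of the 11 were called higher and 0 lower, with a median of 0.65, beside a median of 0.16 and 13.4% called over all miRNAs. With RELA silenced in spheroids, 5 of the 13 were called higher and 1 lower (median 0.92), and 1 of the 11 higher and 1 lower (median 0.28), beside 0.09 and 15.1% called over all miRNAs. In shNeg spheroids against adherent cells, 0 of the 13 were called higher and 5 lower (median -0.55), and 2 of the 11 higher and 7 lower (median -1.44), beside -0.26 and 42.2% called over all miRNAs. In adherent cells, 1 of the 13 was called higher and 2 lower with shRELA (median 0.65), and 1 higher and 3 lower with shRELB (median -0.17). Of the 11, 1 was called higher and 2 lower with shRELA (median -0.15), and 1 higher and 1 lower with shRELB (median 0.06), where 3.76% and 7.07% of all miRNAs were called. Between cultures within a knockdown, 0 of the 13 were called higher, and 4 lower with shRELA (median -0.43) and 0 with shRELB (median -0.55). Of the 11, 1 was higher and 4 lower with shRELA (median -0.00), and 0 higher and 2 lower with shRELB (median -0.69), where 32.6% and 25.0% of all miRNAs were called. The list miRNAs called with both knockdowns in spheroids were hsa-miR-34a-5p, a p53 target that represses SNAI1, at 1.40 ± 0.21 with shRELA and 1.67 ± 0.21 with shRELB, hsa-miR-30a-5p, also a repressor of SNAI1, at 2.74 ± 0.21 and 1.50 ± 0.20, and hsa-miR-155-5p, an inflammatory miRNA, at 3.31 ± 0.38 and 3.84 ± 0.38.

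Over the 24 libraries, the miRNAs whose log2 CPM was most like that of hsa-miR-200c-3p were hsa-miR-503-3p (Pearson r = 0.86), hsa-miR-302a-5p (r = 0.86) and hsa-miR-196b-5p (r = 0.85), of 332 with a mean of at least 10 CPM. For hsa-miR-200b-3p they were hsa-miR-363-3p (r = 0.94), hsa-miR-424-3p (r = 0.91) and hsa-miR-27a-5p (r = 0.89). Between members, r was 0.71 for hsa-miR-200c-3p with hsa-miR-200b-3p across clusters, 0.54 for hsa-miR-200c-3p with hsa-miR-141-3p within a cluster and 0.27 for hsa-miR-200b-3p with hsa-miR-200a-3p within the other. All of these values include spheroid shNeg replicate 1, which had 1 count of hsa-miR-200b-3p and 14 of hsa-miR-200a-3p. Values of r without that library are not given, so the low r of this pair may rest on it. These values describe libraries that share 6 groups and differ in depth, and they carry no test.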

How the data were processed

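Total RNA of 24 OV90 samples was made into QIAseq miRNA libraries, whose primer holds a unique molecular index; whether reads were collapsed by it is not given in the sources used here. Per the labels and methods, the authors removed adapters using Cutadapt, then ran miRDeep2 with miRBase and GRCh38. The deposited values are estimated counts per mature miRNA, read as counts because library totals differ, although the table is titled as CPM. Fractional values, 3.04% of those above 0 and on 84 miRNAs, were rounded. Column names were matched to sample titles.

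All libraries were fitted with group as the only term in edgeR 4.0.16 (R 4.3.3), with TMM scaling, the quasi-likelihood test and Benjamini-Hochberg FDRs over the 905 of 2656 miRNAs that reached 1 CPM in 4 or more libraries. Calls needed an FDR below 0.01 and a fold change above 2. Ratios were tested by 2-sided exact permutation (scipy 1.17.1). Pooled counts have exact Poisson intervals of 95%. The edgeR, limma and DESeq2 fits were run on simulated data, for shRELB against shNeg spheroids only. The permutation tests and the Poisson intervals were not checked in that way. Alternatives were limma 3.58.1, DESeq2 1.42.0, other filters, scalings and thresholds, the replicate number as a block and each library left out. Same-numbered libraries did not deviate together (median r = -0.02 over 60 pairs), so numbers were not taken to pair them. The members, EMT lists and tissue markers were chosen with earlier results of these data known. All members are named; the list miRNAs named are those called with both knockdowns in spheroids, and the miRNAs named for likeness are the 3 with the highest correlation.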

Additional observations from a re-analysis of the deposited data

Results flagged for a closer look

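Of 50 groups of 4 values, 3 had a library far from the other 3 by Dixon's gap ratio, where chance gives about 1 in 20. hsa-miR-200c-3p was highest at 3263 CPM in adherent shNeg replicate 4, where the other 3 libraries lay between 3129 and 3151 CPM. hsa-miR-200c-5p was highest at 3.69 CPM, or 7 counts, in spheroid shRELB replicate 1. The log2 ratio of miR-200c-3p to miR-200b-3p was 10.5 in spheroid shNeg replicate 1, on 1 hsa-miR-200b-3p count.

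Changes that differed between cultures, by edgeR's quasi-likelihood test of the difference itself, were those of hsa-miR-200b-3p with shRELA (1.95 on the log2 scale) and of hsa-miR-200c-3p with shRELA (1.91) and with shRELB (1.21), each higher in spheroids than in adherent cells.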

How the results depend on the processing

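Depth limits the chromosome 1 members and the 5p strands most, with 1 to 26 hsa-miR-200b-3p counts per shNeg spheroid library. The number of members called moved under these alternatives, libraries left out aside. For adherent shRELA it was 0, and 2 with DESeq2 or only the groups compared, and 1 with the likelihood ratio test or an FDR below 0.05. For adherent shRELB it was 1, and 2 under the same 4 settings. For spheroid shRELB it was 3, and 1 with only the groups compared, and 4 with the likelihood ratio test or an FDR below 0.05. For spheroid against adherent shNeg it was 2, and 1 with mean CPM of 10 or more, median-ratio size factors, library totals or only the groups compared, and 3 with no fold limit. For spheroid against adherent shRELB it was 0, and 1 with no filter or no fold limit. For adherent shRELB against shRELA it was 4, and 3 with mean CPM of 10 or more, which leaves hsa-miR-200a-3p untested, or with limma, 5 with DESeq2, the likelihood ratio test or an FDR below 0.05, and 6 with only the groups compared. For the shRELA change between cultures it was 2, and 1 with median-ratio size factors, library totals, limma, the replicate block or only the groups compared. For the shRELB change between cultures it was 1, and 0 with mean CPM of 10 or more or library totals. The shares of all miRNAs called are not given beside these counts or beside those with 1 library left out. Whether the members moved more than other miRNAs is therefore not shown. The cause of these moves was not tested.

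With 1 library left out, members called ranged from 0 to 2 for adherent shRELA, 1 to 2 for adherent shRELB, 1 to 1 for spheroid shRELA, 3 to 3 for spheroid shRELB, 1 to 2 for spheroid against adherent shNeg, 1 to 1 for the same with shRELA and 0 to 1 with shRELB, 3 to 5 and 0 to 2 for shRELB against shRELA in adherent cells and spheroids, and 1 to 2 and 1 to 1 for the shRELA and shRELB changes between cultures. The log2 ratio of miR-200c-3p to miR-200b-3p ranged, for adherent shRELA and shRELB, spheroid shRELA and shRELB, and spheroid against adherent shNeg, shRELA and shRELB, from 0.51 to 0.68, 0.66 to 0.80, -0.22 to 0.88, 0.04 to 1.14, 0.24 to 1.34, 0.27 to 0.81 and 0.55 to 0.78. That of miR-141-3p to miR-200a-3p ranged from 0.94 to 1.39, 0.40 to 0.54, -0.46 to 0.79, -0.36 to 0.88, -0.82 to 0.43, -1.42 to -0.98 and -0.50 to -0.29. The 4 of these ranges that cross 0 all involve shNeg spheroids, and the sign of the difference turned there.

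Beside those ratios, the sign turned for the first ratio with shRELA in spheroids when no counts were added (-0.0853), for hsa-miR-200a-3p with shRELA in spheroids with limma (0.12) and without spheroid shNeg replicate 1 (0.65, where leaving out 1 library gave -0.62 to 0.65), for hsa-miR-200a-3p between cultures with shRELA without adherent shRELA replicate 2 (-0.0893) or 3 (-0.0475) or spheroid shRELA replicate 1 (-0.0246, in a range of -0.0893 to 0.86), and for hsa-miR-200b-3p between cultures with shRELB with mean CPM of 10 or more (0.0040) or only the groups compared (0.0187); none of these values was called. With the replicate block, in which 4 pairs are too few for an exact p below 0.05 on the ratios, no call changed except that of hsa-miR-200b-3p in the shRELA change between cultures, and the pairing is by number alone.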
